A study of Mus musculus with 2 samples.

Results

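The genes described here are 10 chaperone and co-chaperone genes, taken by symbol from a table of 15953 mouse genes. They are the small heat shock protein genes Hspb1, Hspb8 and Cryab, the collagen chaperone gene Serpinh1, and the 6 BAG co-chaperone genes Bag1 to Bag6. All 10 were listed, and all 10 reached 1 CPM (1 read per 1000000 reads counted) in both libraries.

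Total RNA of neural stem cells in suspension culture was sequenced from cells labelled Wild_Type and from cells labelled Hikeshi_cKO, a conditional knockout, with 1 library for each genotype. Hikeshi carries HSP70 chaperones from the cytoplasm into the nucleus. The sources used here do not give the strain and age of the mice, the Cre driver or the deleted exons. With 1 library per genotype there is no replicate error, so each ratio below compares these libraries, carries a 95% counting interval and has no p-value.

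Small heat shock proteins are chaperones that need no ATP. They form large oligomers and hold unfolding proteins until HSP70 can refold them. Most BAG proteins bind the ATPase domain of HSP70 and speed the release of ADP and thereby of the client. Other domains in the family steer clients to the proteasome, to autophagy or to membranes. Hspb1 and Bag3 are known targets of heat shock factor 1, HSF1, the main transcription factor of the heat shock response, and HSPB8 and BAG3 form a complex that passes misfolded proteins to selective autophagy.

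The libraries held 18912683 reads (cKO) and 18839079 reads (wild type). Hikeshi itself had 640 reads (cKO) and 718 reads (wild type), a ratio of 0.888 (interval 0.797 to 0.989), and counts over the whole gene need not show a partial deletion, so the genotypes are taken from the labels. The Y-linked genes Ddx3y and Eif2s3y had 846 and 1265 reads in the cKO library and 0 in the wild-type library, so for every ratio below the genotype and the sex of the cells cannot be told apart. Neural stem cell markers were present, with Sox2 at 404 and 407 CPM and Nes at 780 and 569 CPM in the cKO and the wild-type library. Of the 14 on that list, 1 was higher by 1.5-fold or more and 5 were lower, with 9 below 0 and a median of -0.16. Of all genes that reached 1 CPM in either library, 4.22% were higher by that fold and 10.2% lower. All 10 listed astrocyte markers were lower by 1.5-fold or more in the cKO library, with a summed level of 1583 against 3502 CPM. Of 13 oligodendrocyte lineage markers kept, 10 were at least 1.5-fold lower. The summed level over all 15 listed was 2521 against 3953 CPM. Mobp, below the filter in both libraries, had 0 reads (cKO) and 6 reads (wild type). Microglia markers were near 0, with 5 and 7 reads over the 4 listed of 8. In bulk RNA, fewer cells of a type and less RNA per cell cannot be told apart.

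Per transcript length, the 10 genes covered a wide range of levels, given here as the deposited TPM. Cryab, which encodes alpha B-crystallin, stood highest in both libraries, at 178 TPM (cKO) and 180 TPM (wild type). Bag6 followed at 151 and 153 TPM, Bag1 at 139 and 135 TPM, and Serpinh1 at 124 and 118 TPM. Bag5 lay in the middle at 56.7 and 49.6 TPM. The remaining 5 genes lay between 14.3 and 29.6 TPM in the cKO library and between 3.65 and 32.7 TPM in the wild-type library. The order of the 5 highest genes was the same in both libraries. Below them Bag3 and Bag2 exchanged places, as did Hspb8 and Bag4, and Hspb1 was lowest in both. Neighbours in this order cannot be compared with a spread over samples, since there is 1 library of each kind.

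**Figure D1:**
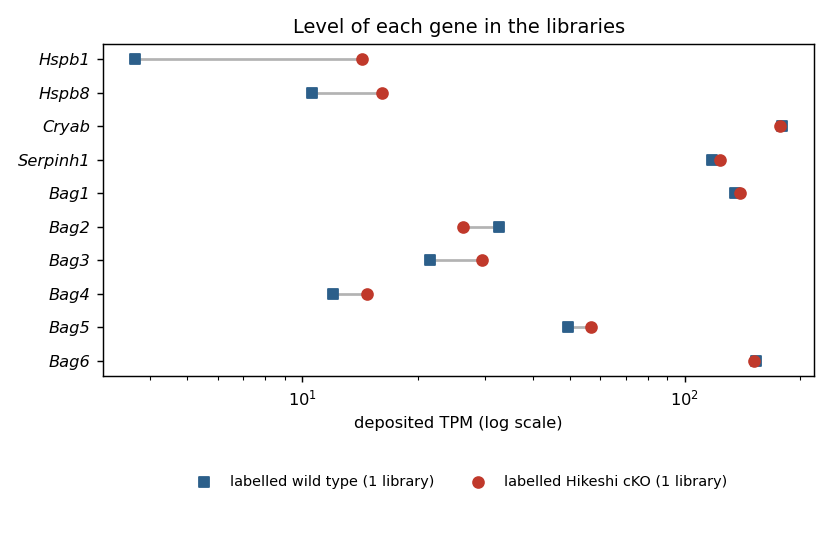
Deposited TPM of each of the 10 genes on a log axis, with a square for the wild-type library and a circle for the cKO library, joined by a line. The symbols of Cryab, Bag6, Bag1 and Serpinh1 nearly coincide, while those of Hspb1 lie at 3.65 and 14.3 TPM.

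A single member, Hspb1, was at least 1.5-fold higher in the library labelled cKO, and 0 were at least 1.5-fold lower. This count used log2 of the CPM ratio after adding 1 CPM to each library. Of all 12618 genes that reached 1 CPM in either library, 4.22% were higher by that fold and 10.2% were lower by it. At 2-fold the members again gave 1 higher and 0 lower, against 1.25% and 3.85% of all genes kept. The median difference of the 10 members was 0.13 on the log2 scale, beside -0.02 for all genes kept, and 7 of the 10 lay above 0, as did 47.8% of all genes kept. Counting intervals lay wholly above 1 for 5 members, wholly below 1 for 1 and held 1 for 4. The same interval lay above 1 for 28.1% and below 1 for 31.2% of all genes kept, so in libraries of this depth an interval that leaves out 1 is common.

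**Figure D2:**
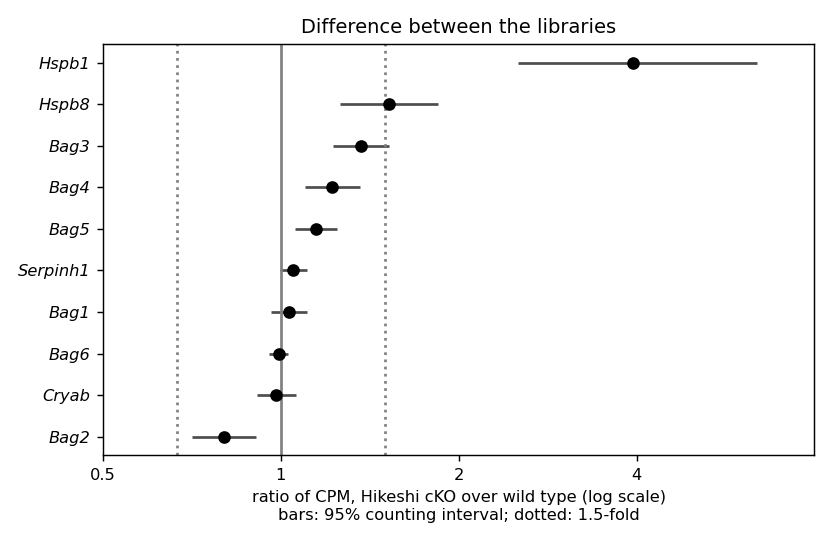
Ratio of CPM, cKO over wild type, for each of the 10 genes on a log axis. Points are ratios, bars are 95% counting intervals, and dotted lines mark 1.5-fold in either direction. Hspb1 at 3.94 stands apart from the other 9 genes, which lie between 0.801 and 1.52.

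Hspb1 encodes HSP25, the mouse form of HSP27, a stress-induced small heat shock protein that also binds actin. It had 99 reads in the cKO library and 25 in the wild-type library, or 5.23 against 1.33 CPM. The ratio was 3.94 (interval 2.52 to 6.39), and the difference ranked 53 of the 12618 genes kept. Its wild-type level was the lowest of any member, so the size of the ratio rests on few reads. With 1 CPM added to each library the log2 difference was 1.42.

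Hspb8 encodes HSP22, the small heat shock protein that pairs with BAG3. It had 283 reads (cKO) and 185 reads (wild type), or 14.96 against 9.82 CPM, a ratio of 1.52 (1.26 to 1.84). Its log2 difference of 0.56 with 1 CPM added lay just inside the 1.5-fold limit of 0.58, and 4.70% of the genes kept had a larger difference in this direction. Hspb8 was therefore not counted as 1.5-fold higher, although its CPM ratio without the added value exceeds that fold.

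Cryab is abundant in lens, heart and glia. It had 1315 reads (cKO) and 1332 reads (wild type), a ratio of 0.983 (0.911 to 1.06), so a difference was not detectable at this depth. Among the glial markers, the 10 of astrocytes had a median difference of -1.35 on the log2 scale and the 13 of the oligodendrocyte lineage one of -3.62, with Olig1 (-0.07), Olig2 (-0.11) and Cspg4 (-0.25) closer to 0. Their part in the level of Cryab was not tested. Cryab overlaps Hspb2, which runs on the opposite strand, over 252 exonic bases, and no source used here gives the strand setting of the counting. Hspb2 had 5 reads (cKO) and 3 reads (wild type).

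Among the small heat shock protein members the composition differed between the libraries. Summed over Hspb1, Hspb8 and Cryab the level was 208 TPM (cKO) and 194 TPM (wild type). Cryab made up 85.4% of that sum in the cKO library and 92.7% in the wild-type library. The share of Hspb1 was 6.85% against 1.88%, and that of Hspb8 was 7.74% against 5.45%. These are not shares of the whole family, since other small heat shock protein genes are left out. Among those is Hspb6 at 27.8 TPM (cKO) and 22.7 TPM (wild type), above Hspb8 and Hspb1 in both libraries. Relative to Cryab, the reads of Hspb1 were 4.01-fold higher (2.54 to 6.54) and those of Hspb8 1.55-fold higher (1.26 to 1.90) in the cKO library.

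The other small heat shock protein genes were mostly below the filter. Of 8 on the list, 6 were in the table and 2 were kept, neither of them 1.5-fold apart. Hspb6, which encodes HSP20, had 343 reads against 277 (ratio 1.23, 1.05 to 1.45) and Hspb11, an intraflagellar transport gene, 202 against 171 (1.18, 0.955 to 1.45). Hspb2, Hspb3, Hspb7 and Hspb9 had between 0 and 5 reads in either library.

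Bag3 had the largest ratio of the BAG genes. It encodes the stress-inducible member that binds HSP70 and HSPB8 and directs clients to autophagy. It had 786 reads (cKO) and 572 reads (wild type), or 41.6 against 30.4 CPM, a ratio of 1.37 (1.23 to 1.53). Of the genes kept, 7.85% had a larger difference in this direction. The ratio of Bag3 to Hspb8 reads differed between the libraries by no more than counting error allows, with Hspb8 over Bag3 at a ratio of ratios of 1.11 (0.894 to 1.39).

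Bag1 encodes a co-chaperone with a ubiquitin-like domain that brings HSP70 clients to the proteasome. It had 1687 reads (cKO) and 1628 reads (wild type), a ratio of 1.03 (0.964 to 1.11), which is not a detectable difference at this depth. The level of Bag3 per that of Bag1, both in TPM, was 0.212 in the cKO library and 0.159 in the wild-type library. From the reads, this quotient was 1.33-fold higher (1.17 to 1.51) in the cKO library.

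Bag2, whose product inhibits the ubiquitin ligase CHIP on HSP70, was the member with the interval wholly below 1. It had 460 reads (cKO) and 572 reads (wild type), or 24.3 against 30.4 CPM, a ratio of 0.801 (0.707 to 0.907). Relative to Bag2, Bag3 reads were 1.71-fold higher (1.45 to 2.02) in the cKO library. In TPM, Bag3 was above Bag2 in the cKO library (29.6 against 26.2) and below it in the wild-type library (21.5 against 32.7).

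Bag4 and Bag5 were slightly higher in the cKO library. Bag4 encodes SODD, which binds the intracellular part of TNF receptor 1, and had 769 reads against 627 (ratio 1.22, 1.10 to 1.36). Bag5, a member with several BAG domains, had 1252 against 1086 (1.15, 1.06 to 1.25). Both ratios are below 1.5, and 15.6% and 22.8% of the genes kept had larger differences in this direction.

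Bag6 encodes a large protein that captures hydrophobic segments of newly made proteins and hands tail-anchored proteins to the GET pathway for insertion into the endoplasmic reticulum. Its 6123 reads (cKO) and 6151 reads (wild type) were the most of any member, and the ratio of 0.992 (0.957 to 1.03) was the most precise.

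Summed over the 6 BAG genes, the level was 418 TPM (cKO) and 404 TPM (wild type). Bag6 and Bag1 together took most of it, with 36.2% and 33.3% in the cKO library and 37.9% and 33.4% in the wild-type library. Bag5 took 13.6% and 12.3%, Bag3 7.07% and 5.33%, Bag2 6.28% and 8.09%, and Bag4 3.52% and 2.97% in the same order. The summed reads of the family were 1.04-fold higher (1.01 to 1.07) in the cKO library.

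Serpinh1 encodes HSP47, a chaperone of the endoplasmic reticulum that binds folded procollagen. It had 2777 reads (cKO) and 2633 reads (wild type), or 147 against 140 CPM, a ratio of 1.05 (0.996 to 1.11). The interval holds 1, so no difference was detectable at this depth.

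**Figure D3:**
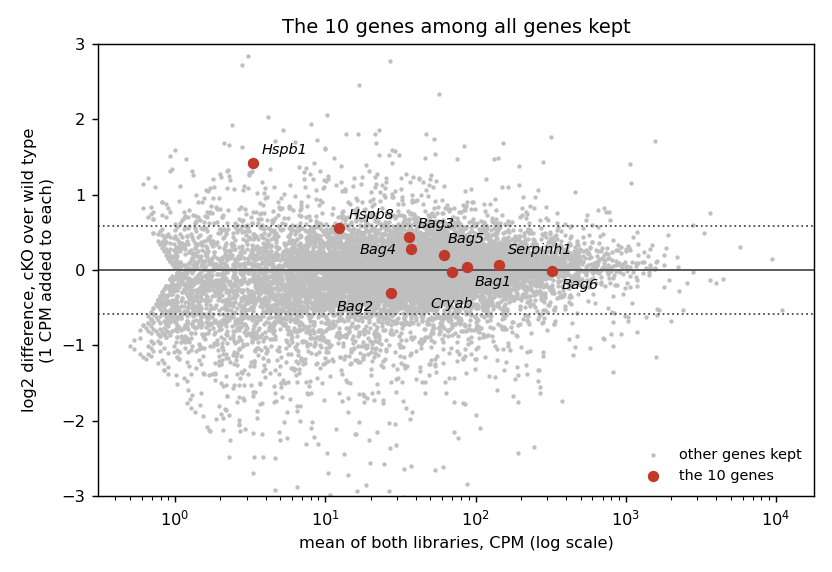
Log2 difference (cKO over wild type, 1 CPM added to each) of all genes kept against their mean CPM on a log axis, with the 10 genes in red and dotted lines at 1.5-fold. Hspb1 lies above the upper dotted line at 1.42 and the other 9 genes lie between the dotted lines. The axis ends at 3 in either direction, which leaves 27 other genes out of view.

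The promoter windows of Hspb1, Hspb8 and Bag3 are described because these members had the highest ratios. Each window runs from 250 bases before to 50 bases after an annotated start, from RefSeq on GRCm38.p6, and 8 of the 10 members had one (all but Cryab and Bag4). HSF1 is known to bind repeats of the unit GAA in alternating orientation. The windows were searched for the unit pairs GAANNTTC and TTCNNGAA, each of which reads the same on both strands, and, on both strands, for a longer run in which GAANNTTC is followed after any 2 bases by a further GAA, which contains both pairs. The letters were searched with the ratios known. GAANNTTC was found in the windows of 3 members, Hspb1, Hspb8 and Bag3, and in none of those of Serpinh1, Bag1, Bag2, Bag5 and Bag6. It was found in 7.86% of all 32851 windows. TTCNNGAA was in 0 of the 8 members' windows and 8.52% of all, and the longer run in 0 and 0.603%. Counted by gene over the 10102 genes kept that had a window, the shares were 6.77% for GAANNTTC, 7.83% for TTCNNGAA and 0.515% for the longer run. The stretches that hold the pair are shown 5′ to 3′ on the strand of the gene, with the pair in capitals, beside that of the inducible HSP70 gene Hspa1b:
Hspb1, chr5:135887769-135887868, plus strand: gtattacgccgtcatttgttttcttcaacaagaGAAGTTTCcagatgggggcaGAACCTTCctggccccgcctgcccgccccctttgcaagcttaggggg
Hspb8, chr5:116422844-116422873, minus strand: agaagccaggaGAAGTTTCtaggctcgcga
Bag3, chr7:128523603-128523632, plus strand: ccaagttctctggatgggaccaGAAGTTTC
Hspa1b, chr17:34959324-34959353, minus strand: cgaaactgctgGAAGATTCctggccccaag

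The Hspb1 window held 2 pairs, starting 117 and 97 bases before the start. In Hspb8 and Bag3 the pair began 2 and 42 bases after the RefSeq start. GENCODE places the start of Bag3 33 bases further on, 9 bases before the pair, so in both annotations the pair of each gene lies in the transcribed part. In Hspa1b it began 104 bases before the start. The same letters, GAAGTTTC, stood in Hspb1, Hspb8 and Bag3, and this sequence or its reverse complement was in 1.21% of all windows. These letters were taken from the windows of these members, so their presence there was fixed beforehand and the share is no test. A match describes the letters of a window and shows no binding. Hspa1b and its near-identical neighbour Hspa1a had 4102 reads in sum in the cKO library and 184 in the wild-type library, a ratio of 22.2 (19.2 to 25.9), far above the ratio of any member.

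The position of the members was also described. Of the 10 members, 3 (Bag1, Bag4 and Bag5) each begin next to a listed protein-coding gene that runs the other way, by GENCODE. The starts were 113 bases apart for Bag1 and Chmp5 on chromosome 4, 1 base for Bag4 and Lsm1 on chromosome 8, and 4 bases for Bag5 and Apopt1 on chromosome 12. Such a pair within 1000 bases, with the partner in the table, was present for 15.1% of the protein-coding genes kept. The difference of the members from that share was not tested. The partners did not all lie with their member. Chmp5, an endosomal sorting gene, had a ratio of 0.979 (0.913 to 1.05) and Lsm1, an mRNA decay gene, 1.13 (1.001 to 1.27). Apopt1, which encodes a mitochondrial protein, had 512 reads (cKO) against 728 (wild type), a ratio of 0.701 (0.624 to 0.785), while Bag5 lay on the other side of 1.

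The genes that work with the members gave a mixed picture. In the list of 18 other heat shock factor targets, 11 were at least 1.5-fold higher in the cKO library and 0 were lower. All 18 lay above 0, with a median of 0.60. Over all genes kept, 4.22% were higher, 10.2% lower and 47.8% above 0, and the difference from these shares was not tested. Under other processing settings the count of higher targets ranged from 9 to 12. The largest differences in the list were those of Hspa1b (4.59 on the log2 scale) and Hspa1a (3.92). Hspb1, at 1.42, lay near Hsph1 (1.43) on this scale, while Hspb8, Bag3 and Serpinh1 lay below that list's median. The added 1 CPM lowers the difference of a low gene such as Hspb1. Without it the ratio was 3.94 for Hspb1 and 2.70 for Hsph1. Hsf1 itself had 832 reads against 724, a ratio of 1.14 (1.03 to 1.27). Of the 3 heat shock factor and regulator genes kept, 0 were 1.5-fold apart.

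HSP70 is the main partner of most BAG proteins. Its constitutive cytosolic gene Hspa8 had 73074 reads against 51739, a ratio of 1.41 (1.39 to 1.42), close to that of Bag3. Over all genes kept, 4.22% passed 1.5-fold upward and 10.2% downward. Among 14 HSP70 family genes kept, 4 passed upward and 2 downward (median 0.28), the latter being Hspa12a (-0.83) and Hspa2 (-0.61). The upward genes include Hspa1a, Hspa1b and Hsph1, which are also on the list of heat shock factor targets. Most BAG proteins share the exchange of nucleotide on HSP70 with other factors, of which 2 of 8 passed 1.5-fold upward and 0 downward (median 0.17). These were the HSP110 genes Hsph1, with 412 against 152 CPM and a ratio of 2.70 (2.59 to 2.82), and Hspa4l, with 118 against 76.9 CPM and a ratio of 1.54 (1.44 to 1.65). Both belong to the HSP70 list as well. With deposited TPM, with deposited FPKM and with the GC trend removed (the median difference of genes of like transcript GC content subtracted), 1 exchange factor in place of 2 passed, Hspa4l falling within 1.5-fold. The count of lower HSP70 genes was 0 with deposited FPKM or 5 CPM added, and 1 with deposited TPM or the GC trend removed.

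**Figure D4:**
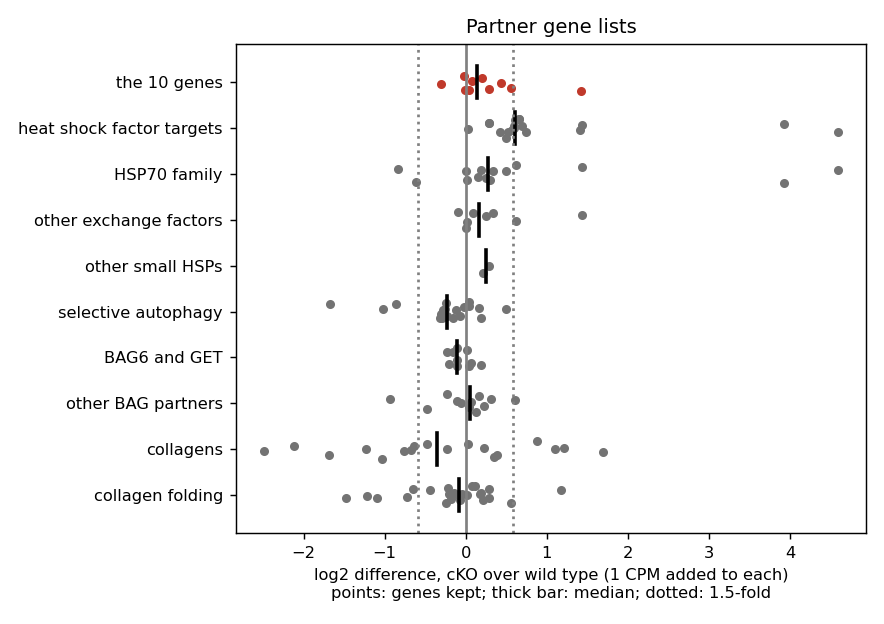
Log2 difference (cKO over wild type, 1 CPM added to each) of the 10 genes, in red, and of the genes kept of 9 partner lists, with the median as a thick bar and dotted lines at 1.5-fold. The median is 0.60 for the heat shock factor targets, 0.13 for the 10 genes and -0.23 for the selective autophagy genes, and lists can share genes.

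The selective autophagy list, which follows the route served by BAG3 and HSPB8, lay mostly on the other side. Among 19 genes kept, 0 passed 1.5-fold upward and 3 downward, 14 lay below 0, and the median was -0.23. Of all genes kept, 4.22% passed upward and 10.2% downward, and 47.8% lay above 0. The difference of the list from these shares was not tested. Synpo2, which tethers the BAG3 complex to autophagosome formation in muscle, had 10 reads (cKO) against 73 (wild type), a ratio of 0.136 (0.0628 to 0.265). Flnc, which encodes the BAG3 client filamin C, had 387 against 803 (0.480, 0.424 to 0.543), and the third was the autophagosome gene Wipi1 (-0.87 on the log2 scale). Stub1, which encodes CHIP, had a ratio of 1.12 (1.05 to 1.19) and the autophagy receptor gene Sqstm1 0.951 (0.917 to 0.987).

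For BAG6, 10 genes of its complex and of the GET pathway were kept and 0 were 1.5-fold apart in either direction (median -0.11). Get4, its partner in that complex, had 1466 reads against 1569 and lay within 1.5-fold as Bag6 did. Of 12 other binding partners of BAG proteins, 1 was at least 1.5-fold higher and 1 lower (median 0.05). The shares over all genes kept were 4.22% and 10.2%. The higher partner was Wwtr1, which encodes the coactivator TAZ, at 164 against 107 CPM (ratio 1.53, 1.45 to 1.62). It fell within 1.5-fold with the GC trend removed, and the lower count was 0 with 5 CPM added.

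Collagens, the clients of HSP47, differed widely in both directions, beside the Serpinh1 ratio of 1.05. Among 18 collagen genes kept, 4 passed 1.5-fold upward and 8 downward in the cKO library (median -0.35). The shares over all genes kept were 4.22% and 10.2%, and the difference from them was not tested. Col18a1, of basement membranes, had 4400 reads against 1346 (ratio 3.26, 3.06 to 3.46) and Col6a1 227 against 87 (2.60, 2.02 to 3.37). Col9a1 had 6 against 120 (0.0498, 0.0179 to 0.112), Col2a1 3 against 76 (0.0393, 0.00793 to 0.119) and Col4a1 357 against 563 (0.632, 0.552 to 0.722). With deposited FPKM 4 collagen genes were lower in place of 8. Reads summed over all 22 collagen genes were 10416 (cKO) and 8473 (wild type), but without Col18a1 the sum was lower in the cKO library, at 6016 against 7127.

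Among 24 genes kept for collagen folding and modification, 1 passed 1.5-fold upward and 5 downward (median -0.09). Over all genes kept, 4.22% passed upward and 10.2% downward, and the difference of the list from these shares was not tested. The prolyl 3-hydroxylase gene P3h2 had 1169 reads against 507 (ratio 2.30, 2.07 to 2.55). The prolyl 4-hydroxylase gene P4ha2 had 70 against 227 (0.307, 0.232 to 0.403) and the crosslinking enzyme gene Loxl2 121 against 304 (0.397, 0.318 to 0.491). Those past 1.5-fold upward numbered 2 with deposited TPM, with 0.1 CPM added and with the GC trend removed, and those downward 3 with deposited FPKM and with 5 CPM added. Pericyte and fibroblast markers, which include the collagen genes Col1a1, Col1a2 and Col3a1, had a summed level of 213 CPM (cKO) and 253 CPM (wild type), with Col1a1 at 14 and 17 reads. Without Cspg4, which is also on the oligodendrocyte lineage list, that sum was 13.6 and 17.0 CPM. Their part in the collagen values was not tested.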

How the data were processed

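Total RNA of 2 mouse neural stem cell libraries, 1 for each genotype label, was sequenced after column extraction and standard Illumina preparation, per the labels' protocols. The submitters' processing notes name GRCm38.p6 as build. The sources used here do not give the aligner, counting tool, annotation or strand setting. The deposited table holds estimated counts of reads per gene, named read counts per the file headers, of which 89.8% (cKO) and 90.0% (wild type) were whole numbers; all values of the 10 members were whole. The table also holds TPM and FPKM, named so per the file headers, and a further deposited signal, the normalized read count per the file headers, used as an alternative only.

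Counts were rounded to whole reads and divided by the column total (CPM). Genes with 1 CPM in at least 1 library were kept. The log2 difference has 1 CPM added to each library and understates differences of low genes. Ratios have no added value, and their 95% intervals are exact conditional binomial (Clopper-Pearson) intervals, or exact conditional odds ratios for quotients of genes. As reads carried no molecular identifiers and are not independent, intervals cover counting error only. No test between genotypes was possible. The interval and the calls were run on simulated counts that held counting error only. As no spread between cultures was simulated, this checks the arithmetic and not the calls on real libraries. The length implied by reads and FPKM agreed between libraries to a quotient of 0.996 to 1.01 for the members.

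A gene that the naming rule takes is not reported here. The members, lists, thresholds and naming rule were chosen with earlier results of these data known, so no list is independent evidence. Named genes were the members, in each list and direction up to 2 genes past 1.5-fold, and fixed anchors (Hikeshi, Hspa1a, Hspa1b, Hspa8, Hsf1, Stub1, Sqstm1, Get4, Col4a1). Wipi1, Hspb2, Hspb6 and Hspb11, the neighbouring genes and the markers named were chosen after their values were seen. With 2 libraries a pattern is 1 ratio, so no gene was ranked by likeness to a member. Further marker lists gave, in summed CPM (cKO, wild type), neurons 914 and 876, endothelium 8.41 and 9.29, ependyma and choroid plexus 10.0 and 12.2, and muscle 4.44 and 3.13. The neuron sum hides differences in both directions. Of 9 neuron markers kept, 3 were at least 1.5-fold higher in the cKO library and 2 lower, beside 4.22% and 10.2% of all genes kept. Gene positions came from RefSeq and GENCODE M21, both on GRCm38. Python 3.11.15, numpy 2.4.6, pandas 2.3.3, scipy 1.17.1 and matplotlib 3.10.9 were used.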

Additional observations from a re-analysis of the deposited data

How the results depend on the processing

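Each result was recomputed under 11 alternatives, 1 of them (removal of the median difference of genes of like transcript GC content, in 10 bins) chosen after seeing the data. Of 110 member values, 107 moved by less than the half-width of their counting interval. The exceptions were Hspb1 at 0.69 with 5 CPM added, and Serpinh1 at 0.16 and Bag6 at 0.08 with the GC trend removed. Leaving out the filter, or asking for at least 10 reads in both libraries, cannot change a member's value. The deposited normalized read count, scaled to its total, gave nearly the same values, so agreement under these settings carries no information. Hspb1 alone was called as reported, and its sign did not change. Hspb1 ranged from 0.69 to 1.90, Hspb8 from 0.43 to 0.62, Bag3 from 0.40 to 0.53 and Bag2 from -0.32 to -0.27 (log2), while the signs of Cryab and Bag6, both near 0, were not the same throughout. Members at least 1.5-fold higher numbered 2, Hspb1 and Hspb8, with 0.1 CPM added and with the GC trend removed. Members at least 2-fold higher numbered 0 with 5 CPM added. Partner genes at least 1.5-fold lower numbered 10 with deposited FPKM and 12 with 5 CPM added, against 19 of 119 kept. The share of all genes kept that were lower was 7.72% and 5.34% in these settings, against 10.2%. A larger added value lowers every difference, and the FPKM setting adds and filters at 1 FPKM. The part of each in these counts was not tested. With 5 CPM added, 304 of all genes kept passed 1.5-fold upward and 674 downward, against 532 and 1290. No replicate could be left out. No paired analysis was possible because each genotype has 1 library. Depth limits Hspb1 most, with 25 reads in the wild-type library.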

Other observations

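The letters GAANNTTC were also counted over all genes kept that had a promoter window, with the members left in. Hspb1 is therefore among the higher genes that hold them. Of 402 genes at least 1.5-fold higher in the library labelled cKO, 35 (8.71%) held them, and of 988 at least 1.5-fold lower, 49 (4.96%) did. Among genes within 1.5-fold the share was 6.89%. For the other pair, TTCNNGAA, the shares lay closer together, at 8.96% of the higher, 6.78% of the lower and 7.90% of the genes within 1.5-fold. GAAGTTTC or its reverse complement, the letters found in Hspb1, Hspb8 and Bag3, was in 6 of the higher genes (1.49%). These 6 include Hspb1, from whose window the letters were taken, so its match was fixed beforehand. Its share was 0.911% of the lower genes and 1.31% of the genes within 1.5-fold. The longer run of units was in 6 of the higher genes (1.49%), in 2 of the lower genes (0.202%) and in 0.505% of the genes within 1.5-fold. These shares were not tested.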
